A study of Mus musculus with 36 samples.

Results

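Mice that carry 2 copies of the *muMt* mutation lack mature B cells, because the mutation disrupts *Ighm*, the gene of the μ heavy chain. CD8+ T cells from the tumours of 12 such mice, 6 without a GABA pellet and 6 with one, were set against those of 6 wild-type (WT) mice, with the same weight for both mutant groups. The 18 libraries were picked by their labels (cell type, genotype and treatment) and are 18 of the 36 libraries of the series, whose other 18 are tumour-associated macrophages (TAMs) of the same 3 groups. MC38 colon adenocarcinoma cells grew in the skin of each mouse, and on day 7 a sort for CD45, TCRβ and CD8 gave 100 cells per library. For the whole study, the paper lists WT mice as C57BL/6J or C57BL/6N and *muMt*-/- mice as C57BL/6J. The paper describes both groups without GABA as placebo-treated, whereas their labels give no treatment; the remaining *muMt*-/- group was implanted with a pellet that releases GABA. Sex is not given by group, but Y-linked transcripts were present in 36 of 36 libraries and *Xist* had 0 molecules in all of them.

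CD8+ T cells recognize peptides on MHC class I and kill the cells that present them with perforin and granzymes, and they release IFNγ and TNF. In tumours they carry activation markers and inhibitory receptors such as PD-1 (*Pdcd1*), and part of them keeps genes of naive and memory cells such as *Tcf7*, *Il7r* and *Ccr7*. GABA is an inhibitory transmitter in the brain that B cells can also release. The contrast asks what the T cells of mice without B cells have in common whether or not GABA is given.

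The libraries carried the transcripts of CD8+ T cells. *Cd8a* had 16 to 52 molecules in the WT and 16 to 71 in the *muMt*-/- libraries, and 17 T cell identity genes (*Thy1*, *Cd8b1*, *Cd3d* and others) made up 0.419 to 0.835% (median 0.585%) of all molecules in WT and 0.236 to 0.842% (median 0.529%) in *muMt*-/- mice. *Cd4*, the mark of helper T cells, had 0 molecules in WT and 4 in *muMt*-/- libraries in all, and *Foxp3* of regulatory T cells 3 and 1. Of the B cell genes, *Ms4a1* and *Cd79a* had 0 molecules in all 18 libraries and *Cd79b* 0 in WT and 5 in GABA-treated *muMt*-/- libraries, and the list of 13 made up 0.00260 to 0.0158% (median 0.00745%) of molecules in WT and 0.00257 to 0.0188% (median 0.00776%) in *muMt*-/- mice; *Ighm* itself was not analysed here. *Nnt*, which C57BL/6J lacks in functional form, had 4 molecules in WT and 7 in *muMt*-/- libraries, too few to tell the substrains apart.

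Depth differed between the genotypes before any gene was compared. WT libraries held 22896 to 76898 molecules and the 12 *muMt*-/- libraries 51064 to 98015, 1.84 times as many by geometric mean (difference of 0.88 in mean log2 number, two-sided exact permutation test over 18564 arrangements, p = 0.00302). WT replicates 1, 2 and 3, with 32394, 22896 and 25283 molecules, were the 3 smallest of all 18 libraries. Leaving out 1 library at a time gave differences of 0.72 to 1.07. Each library was made from the same number of cells, and fewer cells of a type and less RNA per cell cannot be told apart here.

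A second difference lay in transcripts that serve as markers of another cell type, the macrophage. Of 24 macrophage markers, 23 took a larger share of the molecules in *muMt*-/- than in WT libraries, and only *Cd163* did not, with 1 molecule in WT and 2 in *muMt*-/- mice. Their summed share was 0.0278, 0.0306, 0.0672, 0.0205, 0.218 and 0.0897% in WT replicates 1 to 6. It was 0.762, 0.114, 0.199, 0.127, 0.315 and 0.148% in the placebo-treated and 0.451, 0.285, 0.456, 0.0644, 0.0435 and 0.238% in the GABA-treated *muMt*-/- mice, replicates 1 to 6 in order. WT TAM libraries reached 1.96 to 2.41%, so that placebo replicate 1 stood at 33.2% of the median TAM level and WT replicate 4 at 0.893%. The mean share was 0.191 percentage points higher in *muMt*-/- mice (two-sided exact permutation test, p = 0.0159 from doubling the smaller tail and 0.0371 from counting absolute differences, where 0.000108 is the smallest p possible). Of the 12 *muMt*-/- libraries, 6 had a higher share than any WT library, and 11 lay above the WT median, GABA replicate 5 being the exception. WT replicate 5 held 113 of the 226 marker molecules of the WT group; without it the difference was 0.220 points. *Ctsb*, the gene of cathepsin B, which T cells also transcribe, was the most abundant marker (417 molecules over the 18 libraries), and the defining markers *Adgre1*, *Mrc1* and *Mertk* were at 0 in all 6 WT libraries. The sort used CD45, TCRβ and CD8 and no marker against macrophages is named in the labels.

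**Figure D1:**
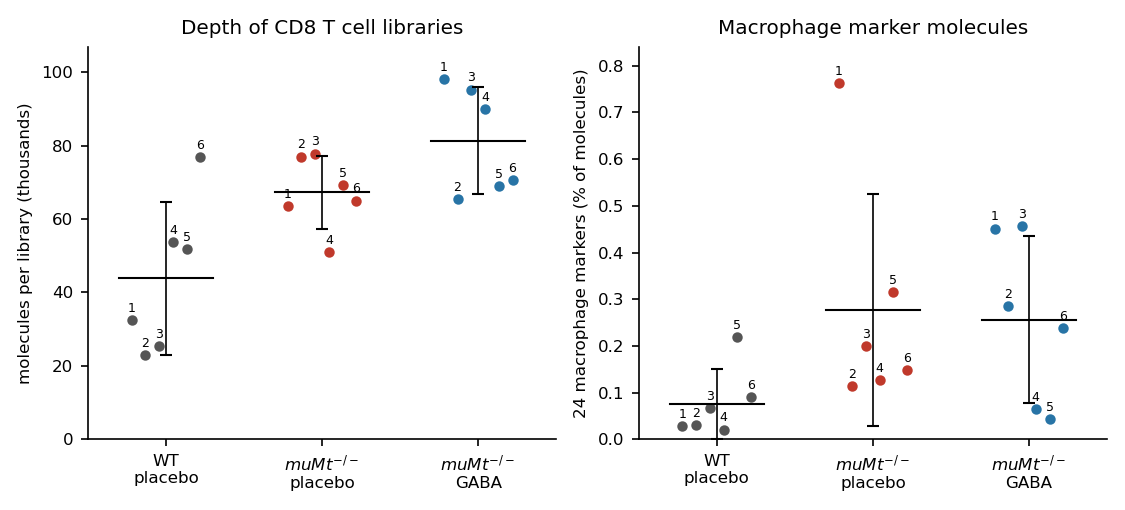
Molecules per CD8+ T cell library (left) and the share of 24 macrophage markers in percent of molecules (right), with 1 point per library numbered by replicate and the mean ± SD of each group. WT replicates 1 to 3 are the smallest libraries, and placebo-treated *muMt*-/- replicate 1 has the highest marker share (0.762%).

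No gene passed in the comparison of both *muMt*-/- groups with WT. Of 6663 genes with a mean normalized number of molecules above 1, 0 (0%) had an adjusted p under 0.05 in edgeR's quasi-likelihood test, and the lowest adjusted p was 0.0932, for *Ftl1*. DESeq2's Wald test also gave 0. At an unadjusted p under 0.05, edgeR had 446 genes, 391 of them higher in *muMt*-/- mice (5.87% of the genes tested) and 55 lower (0.825%), and DESeq2 had 259 (164 higher and 95 lower). The split between higher and lower moved with the processing: DESeq2's size factors in edgeR gave 245 higher and 139 lower, depth (log2 molecules) as a covariate 140 and 105, and filterByExpr, which kept 1266 genes, 58 and 60. Over all genes the median log2 fold change was 0.16 with TMM and 0.042 with DESeq2's size factors, so values below are best read against 0.16. Without WT replicate 5, the WT library richest in macrophage markers, 17 genes passed, all higher in *muMt*-/- mice, among them *Cd74*, *Ctss*, *H2-Aa*, *Psap*, *Fth1*, *Csf1r* and *Plac8*; without placebo-treated *muMt*-/- replicate 2, *Ftl1* alone passed. In 1 gene (0.015%), *Cmtm3*, every *muMt*-/- library lay above every WT library, and in 1 (0.015%), *Rps27rt*, every one lay below. Both are named for this after their values were seen. *Cmtm3* averaged only 1.31 normalized molecules over the 18 libraries (log2 fold change 2.68, edgeR, adjusted p = 0.335). So near the filter of 1, the filter itself favours a gene that is high in *muMt*-/- libraries.

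The 12 named genes that were higher without passing had WT TAM levels 1.05 to 28 times their WT T cell levels. None passed in the main test over the 6663 genes. All 12 passed in edgeR without the filter on the mean, over 13109 genes, with adjusted p from 1.79e-07 (*Mir6240*) to 0.0410 (*Grina*). That fit gave smaller standard errors on the same counts to some genes. They were 0.32 for *Mir6240* and 0.33 for *Tgm2*, against 0.57 and 0.55 in the main fit. Passes without a filter, here and below, are to be read with this caution. Over the 6663 genes, *Ftl1*, *Plac8* and *Psap* passed with the replicate number as a block (0.0263 for each), and *Ftl1* and *Plac8* in the robust fit (0.0259 for each). Averages given for them and for all genes below are normalized molecules ± SD over the 6 libraries of a group. Among the 12 with the smallest unadjusted p and a mean of at least 5 normalized molecules, *Plac8*, *Crip1*, *Vim*, *Cyba* and *Mir6240* had WT TAM levels less than 4 times their WT T cell levels (ratios of 1.05, 1.20, 1.73, 3.41 and 1.15). *Plac8*, which codes for a small cysteine-rich protein of leukocytes, had 12.8 to 35.4 (median 21.4) normalized molecules in WT and 19.2 to 64.8 (median 45.2) in *muMt*-/- libraries. Of the 12 *muMt*-/- libraries, 9 lay above every WT library, and GABA replicates 2 and 3 and placebo replicate 3 were among the WT values. The log2 fold change was 1.07 (adjusted p = 0.177, standard error 0.24), with 1.01 for placebo- and 1.13 for GABA-treated *muMt*-/- mice, which share the WT libraries. With the log2 macrophage marker share as a covariate, where the median of all genes was 0.087, it was 1.01, and without the 3 smallest WT libraries 0.82.

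*Crip1* codes for a LIM-domain protein and lies 265 kb from *Ighm*, on chromosome 12 from 113152012 to 113153879 of mm10. Its level was 20.2 to 32 (median 27.6) in WT and 23.6 to 75.7 (median 43.4) in *muMt*-/- libraries, 11 of which exceeded every WT library. The difference was 0.89 (adjusted p = 0.303, standard error 0.23), and 1.04 with the marker share as a covariate. In TAMs under the same contrast *Crip1* differed by -0.05 (adjusted p = 0.953). Within 5 Mb of *Ighm*, 29 genes were tested, of which *Crip1*, *Pld4* and *Tnfaip2* were higher at an unadjusted p under 0.05 (5.87% of all genes) and *Cdca7l* was lower (0.825% of all), and the median of the 29 was 0.22. *Pld4* and *Tnfaip2* had TAM levels 25.4 and 14.7 times those in T cells, and with the marker share as a covariate they went from 1.94 to -0.0078 and from 2.52 to 0.94.

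*Vim* (vimentin, the intermediate filament of leukocytes) and *Cyba* (the p22 subunit of NADPH oxidase) each overlapped more with WT than *Plac8* and *Crip1* did. *Vim* averaged 83.7 ± 23.8 in WT, 125 ± 18.7 with placebo and 123 ± 38.2 with GABA in *muMt*-/- mice, a difference of 0.68 (adjusted p = 0.303, standard error 0.18) that was 0.38 without the 3 smallest WT libraries, 0.30 with depth and 0.27 with the marker share as a covariate. *Cyba* averaged 13.7 ± 7.01 in WT, 24.7 ± 10.5 with placebo and 29.5 ± 11.4 with GABA in *muMt*-/- mice, a difference of 1.02 (adjusted p = 0.303, standard error 0.28), and 0.47 with the marker share as a covariate. For either gene 6 of 12 *muMt*-/- libraries were above the highest WT library. *Mir6240* is annotated as a microRNA locus on chromosome 5 (114851948 to 114852064), and the molecules counted there are not a measure of the mature microRNA. It had 3.76 to 8.84 (median 5.33) in WT and 0.788 to 67.8 (median 17) in *muMt*-/- libraries, where 8 lay above and 3, GABA replicates 4, 5 and 6, below all WT libraries (log2 fold change 2.05, adjusted p = 0.303, standard error 0.57). With the marker share as a covariate it was at 0.50. In TAMs it rose by 2.19 (edgeR, adjusted p = 2.40e-05), 1 of 86 genes (0.908%) of 9469 that passed there in the same contrast.

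The other 7 genes had WT TAM levels 5.12 to 28 times their WT T cell levels. *Ftl1* and *Fth1* code for the light and heavy chains of ferritin, the iron store of the cell. *Ftl1* had 21.6 to 37.6 (median 27.2) normalized molecules in WT and 31.9 to 122 (median 53.5) in *muMt*-/- libraries, with 10 of 12 above every WT library, and its log2 fold change was 1.20 (adjusted p = 0.0932, standard error 0.24). *Fth1* had 18.3 to 128 (median 45.2) and 45.3 to 259 (median 95.1), and 4 of 12 above WT replicate 5, which alone reached 128 (log2 fold change 1.14, adjusted p = 0.303, standard error 0.32). Without that library *Fth1* was at 1.61; with depth as a covariate it was at 0.50. With the marker share as a covariate *Ftl1* was at 0.52 and *Fth1* at 0.048.

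Lysosomal proteins came next. *Psap*, the precursor of the saposins that help to break down sphingolipids, averaged 13.3 ± 8.36 in WT, 33.3 ± 14.2 with placebo and 27.4 ± 10 with GABA in *muMt*-/- mice, a difference of 1.30 (adjusted p = 0.177, standard error 0.30) that was 0.49 with the covariate. *Grn* (progranulin) averaged 1.86 ± 1.51 in WT, 10.4 ± 7.90 with placebo and 7.33 ± 6.04 with GABA in *muMt*-/- mice, a difference of 2.07 (adjusted p = 0.303, standard error 0.56), and 0.74 with the covariate. The enzyme gene *Tgm2* (transglutaminase 2), the metallothionein *Mt1* and the membrane protein gene *Grina* had differences of 1.98 (adjusted p = 0.303, standard error 0.55), 2.20 (adjusted p = 0.303, standard error 0.60) and 1.31 (adjusted p = 0.303, standard error 0.34), which were 0.52, 0.87 and 0.83 with the covariate. Without WT replicate 5 *Tgm2* was at 3.07. In *Mt1*, replicates 1 of both *muMt*-/- groups were far above the others (38.4 and 36.2), and leaving out 1 library at a time gave 1.68 to 3.27. With depth as a covariate *Mt1* was at 1.07 and *Grn* at 1.32. *Grina* had 3.10 to 5.72 (median 4.46) in WT and 3.90 to 17.2 (median 9.95) in *muMt*-/- libraries, with 10 of 12 *muMt*-/- libraries above all of them.

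**Figure D2:**
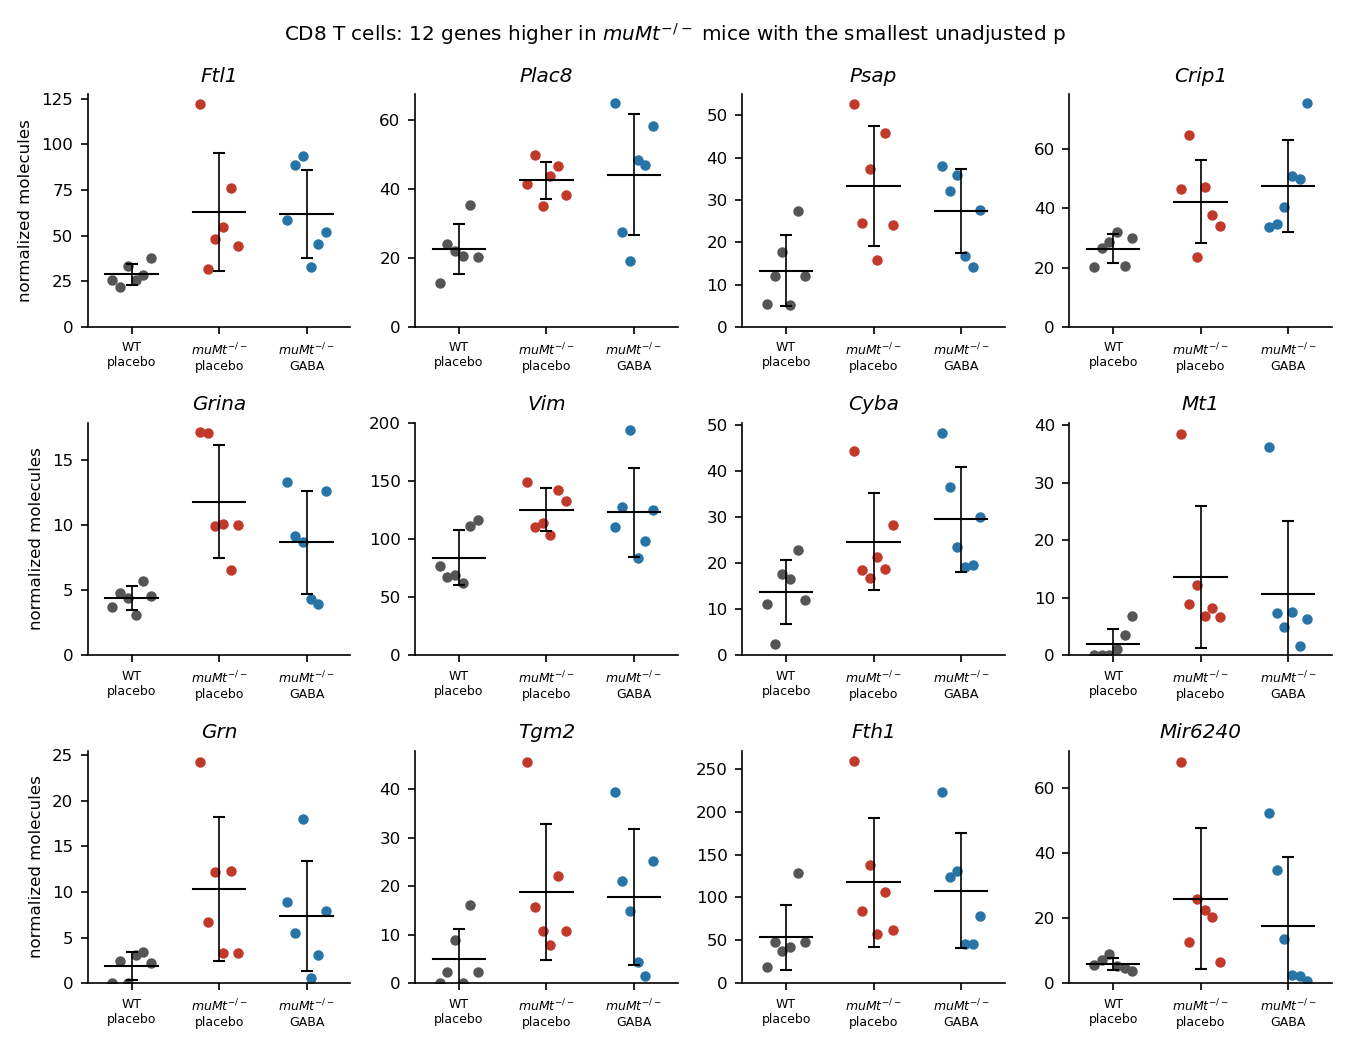
Normalized molecules of the 12 genes with the smallest unadjusted p among those higher in *muMt*-/- mice, with 1 point per library and the mean ± SD per group (n = 6). None passed in the main test over 6663 genes. All 12 passed without a filter, a fit with smaller standard errors for *Mir6240* and *Tgm2* than the main one. *Ftl1*, *Plac8* and *Psap* passed with a replicate block, and *Ftl1* and *Plac8* in the robust fit. The *Ftl1* and *Crip1* points of most *muMt*-/- libraries lie above those of all WT libraries, and placebo replicate 1 and GABA replicate 1 are the highest points of *Mt1*, *Tgm2* and *Fth1*.

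TAM level can also be set against the differences of all genes tested. Of 346 genes whose level in WT TAMs was at least 4 times that in WT T cells (a gene with under 3 molecules over the WT T cell libraries was set to 3), 157 were higher at an unadjusted p under 0.05 and 0 lower, and their median log2 fold change was 1.30. Among the other 6317 genes, 234 were higher and 55 lower, with a median of 0.14. Since the WT T cell level enters both the ratio and the fold change, the ratio was also taken to the mean of all 18 T cell libraries. This left 162 genes, of which 68 were higher and 0 lower, with a median of 1.29. Neither form is a test: a gene with few molecules in WT T cells passes the filter on the mean only if it is high in *muMt*-/- libraries, so that the filter favours a higher value in *muMt*-/- mice (*Lgmn*, for example, had 2 molecules in WT, 31 in placebo-treated and 37 in GABA-treated *muMt*-/- libraries).

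Macrophage-associated lists stood far from the median of 0.16. Of the 24 macrophage markers, 20 were tested and 20 were higher, 17 of them at an unadjusted p under 0.05 (median 2.07). *Fcer1g*, the γ chain of Fc receptors, averaged 4.46 ± 6 in WT, 12.7 ± 10.9 with placebo and 14.4 ± 8.90 with GABA in *muMt*-/- mice. Of 10 genes of MHC class II presentation, 7 were tested and all 7 were higher at that level (median 1.60); *Cd74*, the invariant chain, averaged 15.9 ± 24.2 in WT, 77.7 ± 74.1 with placebo and 49.4 ± 37 with GABA in *muMt*-/- mice, a difference of 2.01 (adjusted p = 0.308, standard error 0.57) that was 3.48 without WT replicate 5. Complement and Fc receptor genes had 7 of 8 higher (median 2.33), for example *C3ar1*, the receptor of the anaphylatoxin C3a (log2 fold change 2.65, adjusted p = 0.470, standard error 0.95). Lysosomal proteins had 6 of 18 (median 0.68), and iron and haem genes 2 of 7, the 2 ferritin chains. Without a filter on the mean, *Cd74*, *Fcer1g* and *C3ar1* passed in the pooled contrast (edgeR, adjusted p = 1.13e-14, 0.00162 and 0.00851). For *Cd74* the standard error in that fit was 0.23, against 0.57 in the main fit on the same counts. Its pass thus rests on a smaller fitted spread and not on a closer match between libraries. *Cd74* and *Fcer1g* also passed without WT replicate 5 (0.00905 and 0.0476). The filter bears on these lists as well. With the macrophage marker share as a covariate the 20 markers themselves are not tested, which takes *Itgam* from the complement list, and the medians of the last 4 lists were 0.038, 0.34, -0.27 and -0.17, against 0.087 for all genes. The covariate is taken from the same libraries and itself differs between the genotypes, so that fit cannot apportion these differences. The part of macrophage transcripts in them was not tested.

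Markers of neutrophils, dendritic cells, B cells, NK cells and tumour epithelium had medians of at most 0.0309% of molecules in *muMt*-/- mice. In WT and *muMt*-/- libraries the median was 0.0167 and 0.0309% for NK cells and 0.00716 and 0.0138% for dendritic cells. It was 0 and 0.00621% for neutrophils, 0.00745 and 0.00776% for B cells and 0.00284 and 0.00207% for tumour epithelium. Of the 10 genes of these lists that could be tested, 3 were higher at an unadjusted p under 0.05 and 0 lower: *Cxcr2* (1.71), *Itgax* (1.20) and *Tyrobp* (1.62), the last also a macrophage marker. Of the 2 neutrophil genes tested, 1 was higher and 1 lower, and the most abundant, *S100a8*, averaged 1.45 normalized molecules. At levels so near the filter of 1, the filter favours a higher value in *muMt*-/- mice. CD4 and regulatory T cell markers had 0 of 5. Stromal and endothelial markers made up 0.00932 to 0.110% (median 0.0255%) in WT, 0.00308 to 0.175% (median 0.0840%) with placebo and 0.00709 to 0.0746% (median 0.0275%) with GABA, levels that overlap and that reach those of the macrophage markers in WT. Of 4 tested, 0 had an unadjusted p under 0.05, and values were opposite in the *muMt*-/- groups: *Dcn* (decorin) was at 0.81 with placebo and -1.69 with GABA against WT, and at -2.51 between them (adjusted p = 0.999). This difference passed with depth as a covariate (edgeR, adjusted p = 0.0481), with the marker share as a covariate (0.0464), without a filter (0.00160) and without the 3 marker-rich *muMt*-/- libraries (0.0346). *Col3a1*, of the same list, also passed between these groups without a filter (-1.27, edgeR, adjusted p = 0.00689).

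Among the 12 genes lower in *muMt*-/- mice with the smallest unadjusted p, none had a higher level in WT TAMs than in WT T cells. *Rps27rt*, an intronless copy of the gene of ribosomal protein S27 (chromosome 9 from 114982366 to 114982739), had 111 to 189 (median 126) normalized molecules in WT and 55.3 to 105 (median 88.8) in *muMt*-/- libraries, which did not overlap. The log2 fold change was -0.51 (adjusted p = 0.335, standard error 0.15), and -0.25 with depth as a covariate. Its parent *Rps27* was at -0.25 (standard error 0.24), and how the counting divided reads between such near-identical copies is not given in the sources used here. The same caution holds for *Gm6654*, annotated as a processed pseudogene.

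*Fyb*, which codes for the adaptor ADAP that links the T cell receptor to integrins, had 20.2 to 38.5 (median 25.1) in WT and 5.47 to 22.3 (median 15.3) in *muMt*-/- libraries, 11 of 12 below all WT libraries (log2 fold change -0.75, adjusted p = 0.335, standard error 0.23). *Ptpn22*, the gene of a phosphatase that dampens T cell receptor signals, had 19.5 to 31.3 (median 25.6) in WT and 5.06 to 24.7 (median 14.3) in *muMt*-/- libraries, a difference of -0.63 (adjusted p = 0.643, standard error 0.27). *Pde7a*, a phosphodiesterase that degrades cAMP, and *Crem*, a transcription factor that responds to it, were at -0.76 and -0.86 (adjusted p = 0.690 and 0.506). With the marker share as a covariate *Ptpn22*, *Pde7a* and *Crem* were at -0.20, -0.19 and -0.47, and with depth at -0.35, -0.59 and -0.38; *Fyb* was at -1.0 and -0.69. *Crem* depends in part on WT replicate 2, whose 24 normalized molecules compare with at most 9.17 in the other WT libraries; without it the value was -0.65. The interferon-stimulated gene *Ifit3* averaged 7.99 ± 5.30 in WT, 2.97 ± 2.37 with placebo and 4.55 ± 3.14 with GABA in *muMt*-/- mice, a difference of -1.14 (adjusted p = 0.539, standard error 0.44).

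*Smap1*, which acts on Arf6 in membrane traffic, and *Nsd3*, a histone methyltransferase gene, each had 11 of 12 *muMt*-/- libraries below all WT libraries. *Smap1* averaged 8.70 ± 2.85 in WT, 4.07 ± 1.43 with placebo and 3.63 ± 0.712 with GABA in *muMt*-/- mice, a difference of -1.03 (adjusted p = 0.335, standard error 0.31), and *Nsd3* had a difference of -0.66 (adjusted p = 0.477, standard error 0.24). *Commd7* and *Gramd1a* were at -1.27 and -0.83 over broad WT ranges of 1.83 to 20.6 (median 6.92) and 3 to 20.2 (median 10.1). With the marker share as a covariate they were at -1.91 and -0.58, and with depth *Nsd3* was at -0.44. In every alternative run, 10 of the 12 genes kept negative values. The exceptions were *Gm6654* and the small nucleolar RNA locus *Snora81*. They and *Ifit3* (-1.49 with placebo and -0.80 with GABA) were those of the 12 whose values for the *muMt*-/- groups were more than 0.5 apart. *Gm6654* was at -0.025 with placebo and -1.07 with GABA (GABA against placebo -1.04, adjusted p = 0.119). GABA against placebo passed for *Gm6654* with the marker share (edgeR, adjusted p = 0.00177) or depth (0.0481) as a covariate, without a filter (0.000209), with the replicate number as a block (0.00394), without the 3 smallest WT libraries (0.0189), without the 3 marker-rich *muMt*-/- libraries (0.0346), and without placebo replicate 6 (0.0196) or WT replicate 6 (0.0207). GABA against WT passed for *Gm6654* in 11 alternatives, with adjusted p from 0.000170 to 0.0375, and for *Snora81* with the marker share as a covariate (0.0482) and without a filter (0.00612). *Snora81* was at -0.25 and -0.87, while *Eif4a2*, the gene that contains it, was at 0.29 in the pooled contrast. With depth as a covariate *Gm6654* turned to 0.14 and *Snora81* to 0.21, and without the 3 smallest WT libraries they were at -0.015 and -0.12. *Snora81* rose in TAMs (0.65, edgeR, adjusted p = 0.00476); whether the 2 cell types differ was not tested.

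**Figure D3:**
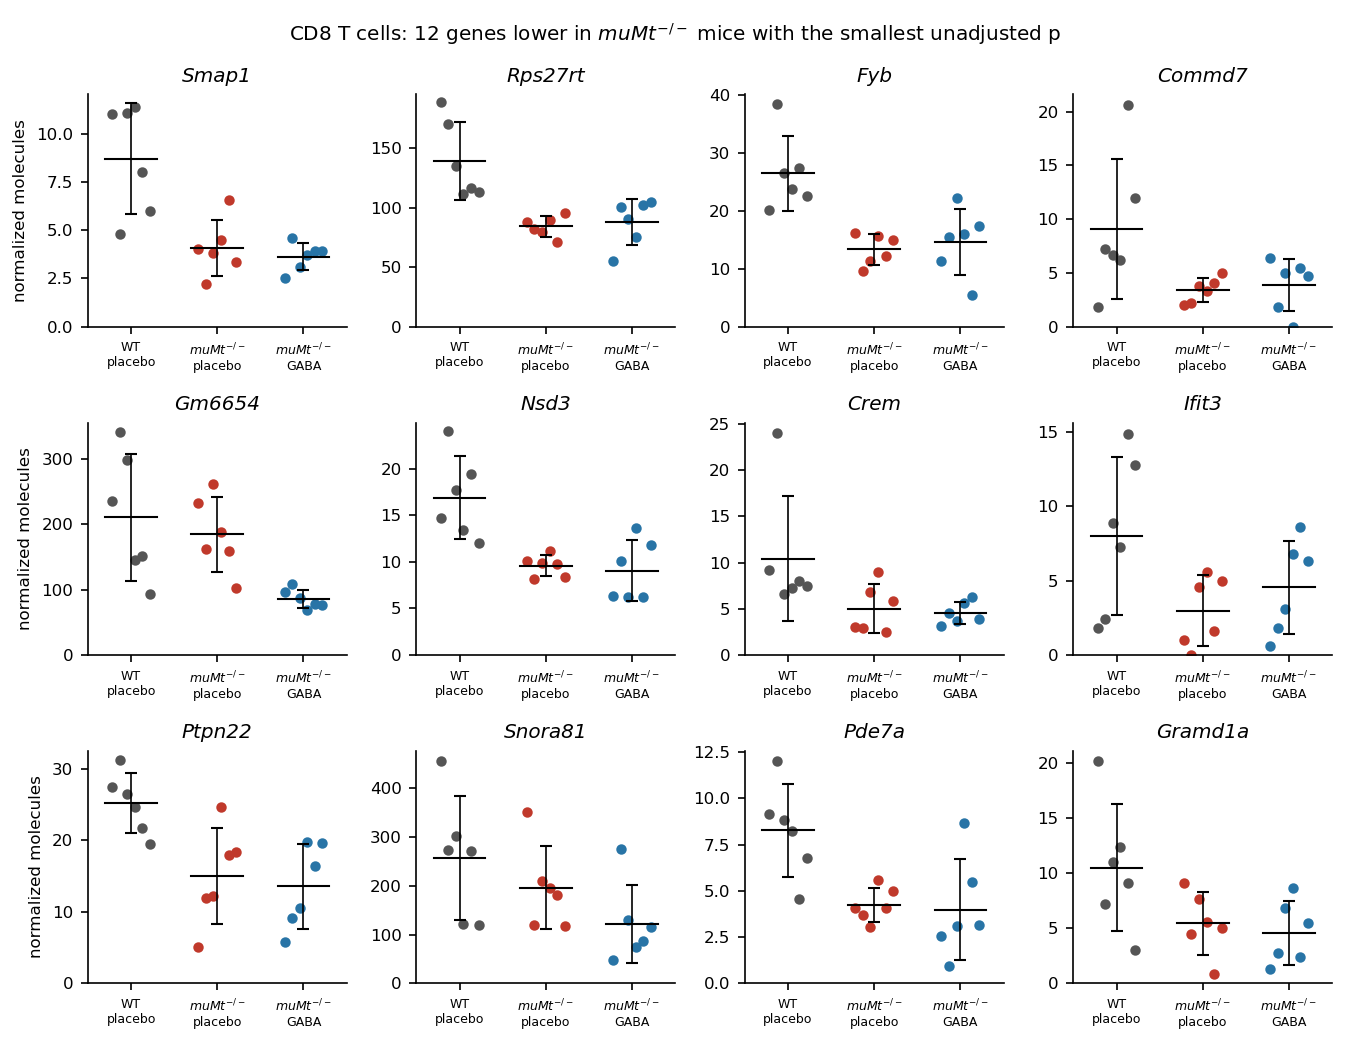
Normalized molecules of the 12 genes with the smallest unadjusted p among those lower in *muMt*-/- mice, with 1 point per library and the mean ± SD per group (n = 6). The *Rps27rt* points of all 12 *muMt*-/- libraries lie below those of the 6 WT libraries, and the *Gm6654* points of the GABA-treated group lie below its mean in both other groups.

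An unadjusted p under 0.05 was reached by 5.87% of all genes as higher and by 0.825% as lower. Of 16 T cell identity genes tested, 0 had an unadjusted p under 0.05 and the median was 0.0082, -0.16 relative to all genes (-0.17 with DESeq2's size factors). With the marker share as a covariate the list was at 0.51, against 0.087 for all genes. *Cd8b1* averaged 48 ± 17.5 in WT, 33 ± 11 with placebo and 33.6 ± 11 with GABA in *muMt*-/- mice, at -0.36, and *Cd3d* was at 0.14. Cytotoxic effectors had 2 of 16 higher and a median of 0.064. The 2 were *Ctsc*, whose protease activates granzymes, and *Lamp1*, at 16.1 and 5.77 times their T cell level in TAMs. Both passed without a filter (edgeR, adjusted p = 1.16e-05 and 0.0423), and *Ctsc* also without WT replicate 5 (0.0288). *Gzmb* (granzyme B) averaged 132 ± 35.1 in WT, 139.6 ± 44.6 with placebo and 169 ± 37 with GABA in *muMt*-/- mice, at 0.34 (standard error 0.19).

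Cytokine and chemokine genes had 3 of 14 higher at that level (median 0.34). *Mif* (macrophage migration inhibitory factor) was at 0.67, *Csf2* (GM-CSF) at 1.27 and *Tnf* at 2.18 from a low WT mean of 0.649. That mean is under the filter of 1, so *Tnf* was tested only because its *muMt*-/- libraries were high. Of the 14 genes, 2 had WT TAM levels at least 4 times their WT T cell levels. *Csf2* averaged 4.01 ± 2.82 in WT, 6.90 ± 4.18 with placebo and 15 ± 18.8 with GABA in *muMt*-/- mice, and WT TAMs had none of it. *Ifng* differed in sign between the *muMt*-/- groups, with -0.048 for placebo and 0.97 for GABA against WT, as did *Ccl5* (-0.77 and 0.44). Between the *muMt*-/- groups these genes were at 1.02 and 1.21 (edgeR, adjusted p = 0.999 and 0.999). Both passed with the marker share as a covariate (adjusted p = 0.0182 for each) and without a filter (4.03e-05 for each), and *Ccl5* also with the replicate number as a block (0.0225) and without the 3 marker-rich *muMt*-/- libraries (0.0346). For GABA against WT without a filter, *Ifng* (1.02), *Csf2* (1.90) and *Mif* (0.92) passed (edgeR, adjusted p = 3.04e-05, 0.000265 and 0.0170).

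Inhibitory receptors and *Tox* had 0 of 7 tested genes at an unadjusted p under 0.05, with medians of 0.66 for placebo and 0.012 for GABA. *Pdcd1* was at -0.079 and *Havcr2* (TIM-3) at 0.68 in the pooled contrast, the latter with 7 of 12 *muMt*-/- libraries above all WT libraries. Costimulatory receptors (0 of 9, median 0.082) and the IL-2 receptor and STAT5 list (0 of 15, median 0.19) lay near the median of all genes. Naive and memory genes had 0 of 13 and, in the main fit, the lowest median of the lists with at least 5 tested genes, -0.18, which is -0.35 relative to all genes, -0.38 after thinning and -0.13 without the 3 smallest WT libraries. With the marker share as a covariate the median was -0.089, above, for example, that of lysosomal proteins (-0.27). *Ccr7*, which guides T cells to lymph nodes, was at -0.18, and *Tcf7* (TCF-1) at -0.21. NF-κB targets and regulators had 0 of 16 and a median of -0.12, which is -0.28 relative to all genes, -0.15 after thinning to equal depth and -0.45 without the 3 smallest WT libraries; *Tnfaip3* (A20), an inhibitor of that pathway, averaged 37.3 ± 9.54 in WT, 31.4 ± 5.37 with placebo and 22.6 ± 10.2 with GABA in *muMt*-/- mice, at -0.34.

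Of 15 effector transcription factors, *Irf8* and *Prdm1* (Blimp-1) were higher at an unadjusted p under 0.05 (median of the list 0.087). *Irf8* had 14.4 to 25.5 (median 21.9) in WT and 22.9 to 69.3 (median 31.1) in *muMt*-/- libraries, 9 of 12 above every WT library, with a difference of 0.80 (adjusted p = 0.318, standard error 0.23) and a TAM level 1.45 times that of T cells. Residence and homing genes had 2 of 12, the chemokine receptors *Ccr2* (1.49) and *Cx3cr1* (1.54), at 7.21 and 9.28 times their T cell level in TAMs. Without a filter, *Ccr2* passed in the pooled contrast (edgeR, adjusted p = 0.0005) and *Irf8* for GABA against WT (0.0276). Immediate early genes had 2 of 18, *Zfp36* (0.67) and *Atf3* (1.63), and their medians were 0.60 for placebo and 0.04 for GABA.

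**Figure D4:**
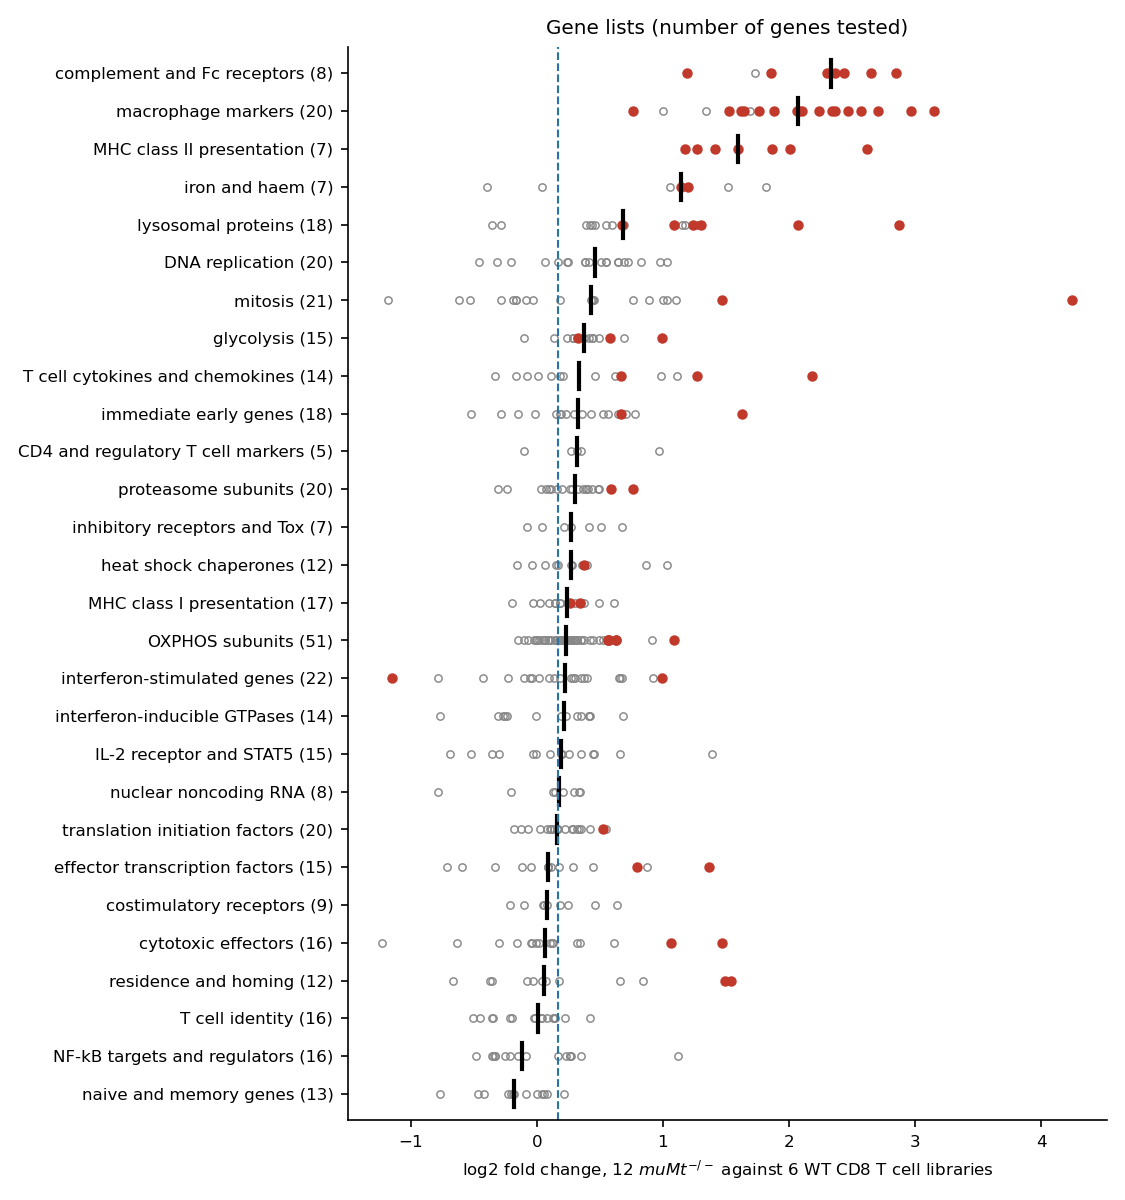
Log2 fold changes of single genes in the pooled contrast for each list with at least 5 tested genes; filled red points have an unadjusted p under 0.05, open points do not, the *Cdc20* point of the mitosis list is fitted against 0 molecules in WT, bars are list medians and the dashed line is the median of all 6663 genes (0.16). The TNF targets of the study are not plotted; of the lists shown, 5 that are macrophage-associated are at the top, and T cell identity, naive and memory, and NF-κB genes lie at the bottom.

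Interferon and MHC class I genes stood close to all genes. Interferon-stimulated genes had 1 of 22 higher, the nucleic acid sensor *Zbp1* (0.99), and 1 lower, *Ifit3*, with a median of 0.23, and interferon-inducible GTPases 0 of 14 with 0.21. In MHC class I presentation, *B2m* (0.26, standard error 0.12) and *H2-D1* (0.34, standard error 0.14) were 2 of 17 at that level, and *H2-K1* was at -0.032. With DESeq2's size factors these 3 genes were at 0.12, 0.20 and -0.19.

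Metabolic lists had medians slightly above the median of all genes. Glycolysis had 3 of 15 higher (*Ldha* 0.32, *Pgk1* 0.58 and *Hk2* 1.0; median 0.38), OXPHOS subunits 6 of 51 (median 0.23), and proteasome subunits 2 of 20 (median 0.30). Relative to all genes these 3 medians were 0.21, 0.068 and 0.14. They were 0.27, 0.075 and 0.15 after thinning to equal depth, and 0.036, -0.073 and 0.0065 without the 3 smallest WT libraries. DNA replication genes had 0 of 20 (median 0.46) and mitosis genes 2 of 21, *Cenpf* (1.47) and *Cdc20*, which had 0 molecules in the WT libraries and so could only be higher (median 0.43). *Mki67*, the proliferation marker, was at -0.19. Relative to all genes the median of DNA replication genes was 0.30, -0.0016 after thinning and 0.22 without the 3 smallest WT libraries. That of mitosis genes was 0.26, 0.59 and -0.085 in the same order.

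Chaperones (1 of 12, median 0.27), translation initiation factors (1 of 20, 0.16) and nuclear noncoding RNA (0 of 8, 0.18) lay near the median of all genes. *Hspa8*, the constitutive HSP70, was the chaperone (0.38, with 7 of 12 *muMt*-/- libraries above all WT libraries), and *Eif2s2* the initiation factor (0.53). *Malat1*, a nuclear RNA that is a common sign of RNA quality, averaged 225 ± 41.6 in WT, 193 ± 82.2 with placebo and 162 ± 38.1 with GABA in *muMt*-/- mice, at -0.20. The sex-linked genes *Ddx3y* and *Eif2s3y* were at 0.021 and 0.066.

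No gene of a GABA receptor subunit reached a mean of 1 normalized molecule. The closest was *Gabbr1*, the first subunit of the GABAB receptor, with 9 molecules in the WT group (1 to 3 in each of 6 libraries), 2 in the placebo-treated and 4 in the GABA-treated *muMt*-/- group, although the *muMt*-/- libraries were deeper. In normalized molecules, WT libraries had 1.03 to 3.43 and *muMt*-/- libraries at most 0.914, values in which 1 molecule counts for more in a shallow library. *Gabbr1* is named after its values were seen, and its mean of 0.939 left it out of the test. The 3 tested genes of the list, *Gabarap*, *Gabarapl1* and *Gabarapl2*, named for a GABA receptor but known for their part in autophagy, had 0 at an unadjusted p under 0.05.

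The list of TNF targets that the study chose on these same libraries is no independent evidence. Of its 32 genes 31 were tested, 0 passed over all genes, and 28 were higher at an unadjusted p under 0.05 (median 1.70; 0.53 with the macrophage marker share as a covariate, a fit without *Cd14*, *Csf1r* and *Itgam*). For 25 of the 31 the WT TAM level was at least 4 times the WT T cell level. *Rhoa*, a small GTPase of the cytoskeleton, and *Cdkn1a* (p21) were among the rest, at 0.69 and 0.96.

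The 2 *muMt*-/- groups that were pooled differed from each other in 0 genes (0%) by edgeR and 0 by DESeq2, with 247 at an unadjusted p under 0.05 in edgeR and 133 in DESeq2. With depth or the marker share as a covariate, 6 (0 higher and 6 lower with GABA) and 8 (3 higher and 5 lower) passed in edgeR. *Kif3a* and *Ccdc36* passed in both fits, at -2.62 and -2.63 with depth (adjusted p = 0.0286 for each). With the marker share they were at -2.17 and -2.20 (0.00420 for each). Each group alone also gave 0 genes (0%) against WT in edgeR, for placebo (411 at an unadjusted p under 0.05) and for GABA (459). DESeq2 gave 0 for placebo (222) and 1 for GABA (222), *Gm6654*. Depth and marker share did not pass between these groups (two-sided exact permutation tests, p = 0.0887 and 0.892).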

How the data were processed

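The authors mapped reads with STAR to mm10 and deposited counts of distinct barcoded molecules per gene, without normalization, for 24781 genes. 0 columns had no sample. Spike-in RNA and immunoglobulin constant genes were not analysed here. The comparison, its libraries and the lists were chosen with earlier results of these data known.

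edgeR 4.0.16 (TMM, quasi-likelihood F-test, 1 coefficient per group, Benjamini-Hochberg over all 6663 genes) was the main test; the contrast was the mean of both *muMt*-/- groups minus WT. Normalized molecules are counts divided by the size factors of DESeq2 1.42.0 (R 4.3.3). The standard error is the log2 fold change divided by the root of F. Exact tests double the smaller tail; they first counted absolute differences, and the change, to the convention of scipy, was made after the values had been seen (Python 3.11.15, numpy 2.4.6, pandas 2.3.3). Coordinates are from RefSeq (24127 names matched). The procedure was tested on simulated data, and the outcome is not given here.

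Genes named were 12 per direction by adjusted p under 0.05, filled by smallest unadjusted p, at a mean of at least 5; in each list the 4 with the highest mean, sex-linked genes, *Nnt* and GABA receptors. Genes of lists at an unadjusted p under 0.05, and others given as examples, were added after their values were seen. Alternatives were other size factors, DESeq2, filterByExpr, no filter, a replicate block, a robust fit, 1 mutant group, thinning to 22896 molecules, covariates and leaving out each library. Leaving out 3 libraries at a time, restricting genes by TAM level and keeping both forms of the exact test were chosen after seeing the data. Counts of replicate pairs differed beyond sampling noise (lowest chi-square per degree of freedom 1.25).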

Additional observations from a re-analysis of the deposited data

Results flagged for a closer look

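In 78 groups of 6 libraries (2 measures per library and the 24 named genes, in 3 groups), 8 values lay far from the rest of their group, where chance gives about 1 in 20 groups. The macrophage marker share was 0.218% in WT replicate 5 (next library 0.0897%) and 0.762% in placebo-treated *muMt*-/- replicate 1 (next 0.315%). The latter library also stood out in *Mt1*, with 38.4 normalized molecules (next 12.2), and in *Mir6240*, with 67.8 (next 25.9). GABA-treated *muMt*-/- replicate 1 had 36.2 in *Mt1* (next 7.43). WT replicate 5 had 128 in *Fth1* (next 48.1), WT replicate 2 had 24 in *Crem* (next 9.17), and GABA-treated *muMt*-/- replicate 2 had 275 in *Snora81* (next 129.5). WT replicate 5 was thus far above its group in both marker share and *Fth1*, and placebo replicate 1 in marker share, *Mt1* and *Mir6240*; the part of macrophage transcripts in these values was not tested.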

How the results depend on the processing

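The number of genes passing in the pooled contrast was 0 with DESeq2's size factors, DESeq2's adjusted p, filterByExpr (1266 genes tested), 1 coefficient for the 12 *muMt*-/- libraries, thinning and either covariate. It was 79 without a filter on low numbers (76 higher and 3 lower), 2 in the robust fit (*Ftl1* and *Plac8*) and 259 by DESeq2's unadjusted p under 0.05. Without a filter, standard errors on the same counts could be smaller, as for *Mir6240* (0.32 against 0.57 in the main fit). Leaving out each of 18 libraries gave 0 to 17. The 3 settings chosen after seeing the data gave 0: without the 3 smallest WT libraries (243 at an unadjusted p under 0.05), without the 3 *muMt*-/- libraries richest in macrophage markers (299), and over the 6317 genes whose TAM level was under 4 times the T cell level (289).

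For GABA against placebo in *muMt*-/- mice, 11 genes passed without a filter, 0 to 1 with 1 library left out, 6 with depth and 8 with the marker share as a covariate, and, in settings chosen after seeing the data, 1 without the 3 smallest WT libraries and 6 without the 3 marker-rich *muMt*-/- libraries (1 for GABA against WT). Against WT, placebo gave 72 without a filter and 0 to 13 with 1 library left out (13 without WT replicate 5), and GABA gave 64 and 0 to 2; with DESeq2's size factors, DESeq2's test and thinning 1 gene passed for GABA, and with the marker share as a covariate 4. Correlations showed no clear pairing of libraries by replicate number. Those of deviations in 18 same-numbered pairs ran from -0.394 to 0.450, and 1 of 18 libraries correlated best with its own number. This check cannot tell whether libraries of the same number shared a day or batch. With the replicate number as a block, 3 genes passed in the pooled contrast (*Ftl1*, *Plac8* and *Psap*), 2 between GABA and placebo, 0 for placebo and 1 for GABA against WT.

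Differences in depth (0.72 to 1.07) and marker share (0.146 to 0.220 points; 1.86 on the log2 scale) passed with each library left out. Counted by absolute differences, the form used until the values had been seen, the exact permutation p was 0.00151 for depth and 0.0371 for the marker share, and the latter lost the call in 7 of 18 such fits. *Gm6654* (0.14) and *Snora81* (0.21) turned positive with depth as a covariate; the cause was not tested. No named gene passed in the pooled contrast to begin with; over 729 values of the 24 genes in alternatives 23 passed, and values that did not pass could shrink to near 0, as *Fth1* did with the marker share as a covariate (0.048).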
